A study of Mus musculus with 18 samples.

Results

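The genes for the proteins of the cytosolic ribosome were followed in RNA-seq of serum-grown mESCs (mouse embryonic stem cells) after siRNA-mediated knockdown (KD) of *Stag1*, a subunit of cohesin. Members were the 85 of 18659 genes whose symbol is Rpl or Rps with a number, *Rplp0*, *Rplp1* and *Rplp2* included, without the S6 kinase genes (*Rps6k*) and symbols with -ps. Of these, 52 belonged to the large subunit and 33 to the small subunit. A core of 76 genes, 46 large and 30 small, was kept apart from 9 related genes, which are paralogs such as *Rpl22l1* and *Rps27l* or, in the case of *Rps19bp1*, a binding partner. The cells were of the male line E14, grown without feeders in serum and LIF, and were transfected for 24 h. Replicate set 1 held 1 library of scrambled siRNA (scr) and 3 of SP, the siRNA pool to *Stag1*, numbered 1a, 1b and 1c. Sets 2 and 3 each held 1 library of scr, SP, 3p and 5p (siRNAs toward the 3′ or the 5′ end of the *Stag1* transcript) and SATS (an enzymatically made esiRNA pool to SATS, the 5′ UTR made from an upstream start site of *Stag1*). Untreated cells were sequenced in set 2 only and luciferase esiRNA in set 3 only, so neither of these controls has a replicate. The study calls its replicates independent, but neither its text nor the labels say whether the sets were separate cultures, and p-values measure the spread between these libraries, part of which may be technical.

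The ribosome reads mRNA on its small subunit, and its large subunit joins the amino acids. Each ribosome holds 1 copy of most of these proteins, and most of them are made from 1 gene each, so that their products are needed in like amounts. The mRNAs of vertebrate ribosomal protein genes begin with a short tract of pyrimidines that starts with C, the 5′ TOP (terminal oligopyrimidine) tract, through which mTOR and *Larp1* control their translation as a group. Their genes are spread over many chromosomes and have left many processed pseudogenes, which share sequence with them and compete for reads.

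Values are reads per gene divided by 1 size factor per library, called normalised reads here. The 4 libraries of set 1 held 9.02 to 14.0 M reads on genes, of which the rRNA precursor *Rn45s* took 69.2% to 79.1%, while *Rn45s* took 14.7% to 23.9% of the 32.1 to 45.7 M reads in sets 2 and 3. A core gene had a median of 1139 reads in set 1 and of 15435 in sets 2 and 3, and counting error alone at that depth was 0.043 and 0.012 on the log2 scale. Embryonic stem cell markers were high in every library, with a summed value of 30117 to 64140.0 over 8 of 8 genes, while the 5 fibroblast markers summed to 83.6 to 443 in set 1, 2562 to 5635 in set 2 and 342 to 548 in set 3. *Stag1* itself was 2016 normalised reads in scr of set 1 and 512, 627 and 660.4 in its SP libraries 1a, 1b and 1c. It was 1619 in untreated cells and 2199.8 after luciferase esiRNA. *Stag1* was 1876 and 2113 normalised reads in scr of sets 2 and 3, 406 and 371 in SP, 392 and 365 in 3p, 441 and 401 in 5p, and 947 and 1051 in SATS. Of the 16 libraries, that of SATS in set 3 stood apart for the members, with the highest value of all in 37 of 76 core genes and the highest of its set in 61 of 76.

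Promoters of 64 members were matched by symbol in RefSeq (GRCm38.p6), 76 in all, since some genes have several. A run of at least 6 C or T that starts with C within 10 bases of the annotated start was present in 46.1% of the members' promoters and in 19.2% of 32851 promoters of all genes. The letters CTTCCG on either strand, a core of binding sites of the Ets family, which the tract can overlap, were found anywhere from 250 bases before to 50 after the start in 59.2% of members against 16.9% of all. AAGATGG on either strand, as in sites of *Yy1*, was found in 15.8% against 6.34%. The windows below run from 12 bases before to 18 after the annotated start, 5′ to 3′ on the strand of the gene, with the longest such run of C and T in capitals. The first 4 are of genes with a large difference after SATS esiRNA, and the other 4 are of genes that were not called there, of which *Rpl27a* has the longest run and was chosen for it after the windows were seen.
Rpl36a: cacccaggcaccgcctataaaCTTCCgttg
Rpl39: aagctccgcctctagcgaCTTCTTCTaatc
Rpl22: tgCTTCTggaatgttccagctcccactgac
Rps21: cgaggacccgCCCTCCTgcccaatagtgct
Rps6: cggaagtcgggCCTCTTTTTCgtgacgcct
Rplp2: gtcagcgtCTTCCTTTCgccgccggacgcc
Rps19: gaaatCTCgcgagactcgacgcccgacttg
Rpl27a: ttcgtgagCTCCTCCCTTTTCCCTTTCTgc
In the same order these windows lie at chrX:134585642-134585671, chrX:37085205-37085234, chr4:152324424-152324453, chr2:180257367-180257396, chr4:86857350-86857379, chr7:141447639-141447668, chr7:24884580-24884609 and chr7:109519183-109519212, on the + strand except for *Rpl39* and *Rps6*. For *Rpl22*, *Rps21* and *Rps19* the first of several starts is shown, and that of *Rpl22* lies before the gene start in GENCODE, at 152325742. At the starts not shown the runs measure 3 bases in *Rpl22*, 4 in *Rps21*, and 4 and 7 in *Rps19*. The runs shown measure 5, 8, 5, 7, 10, 9, 3 and 20 bases. The runs shown thus measured 5 to 8 bases in the first 4 genes and 3 to 20 in the other 4, which depends on the start that is shown. Since these windows were picked, they cannot show whether run length goes with the difference after SATS esiRNA.

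Per kb of transcript, the core genes had a median level of 8157 normalised reads, 7616 for the large and 9446 for the small subunit. The highest means of 16 libraries were those of *Rpl41*, which encodes the smallest ribosomal protein, at 22580.5 per kb, of *Rpl8*, which lies near the peptidyl transferase centre, at 20465 and of *Rplp1*, a stalk protein, at 18233. The other stalk genes, *Rplp0* and *Rplp2*, were at 10606 and 15213 per kb. Of the core, 5 genes fell below 1000 per kb. The lowest were *Rpl30* at 35.5, *Rps27* at 92.7 and *Rpl34* at 139.9 per kb. Of the 75-base windows of their transcripts, 65.1% in *Rpl30*, 98.5% in *Rps27* and 41.4% in *Rpl34* also occurred in transcripts of other genes, mostly pseudogenes, against 4.89% in *Rpl8*. Over all 76 core genes the level and this share correlated only weakly, at a Spearman rho of −0.20, with each point 1 gene and all points from the same libraries. Reads that match several places are uncertain in these genes, and the part of shared sequence in the low levels was not tested. The principal transcripts of *Rps15a* and *Rps20* are long in the annotation, which lowers their value per kb.

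**Figure D1:**
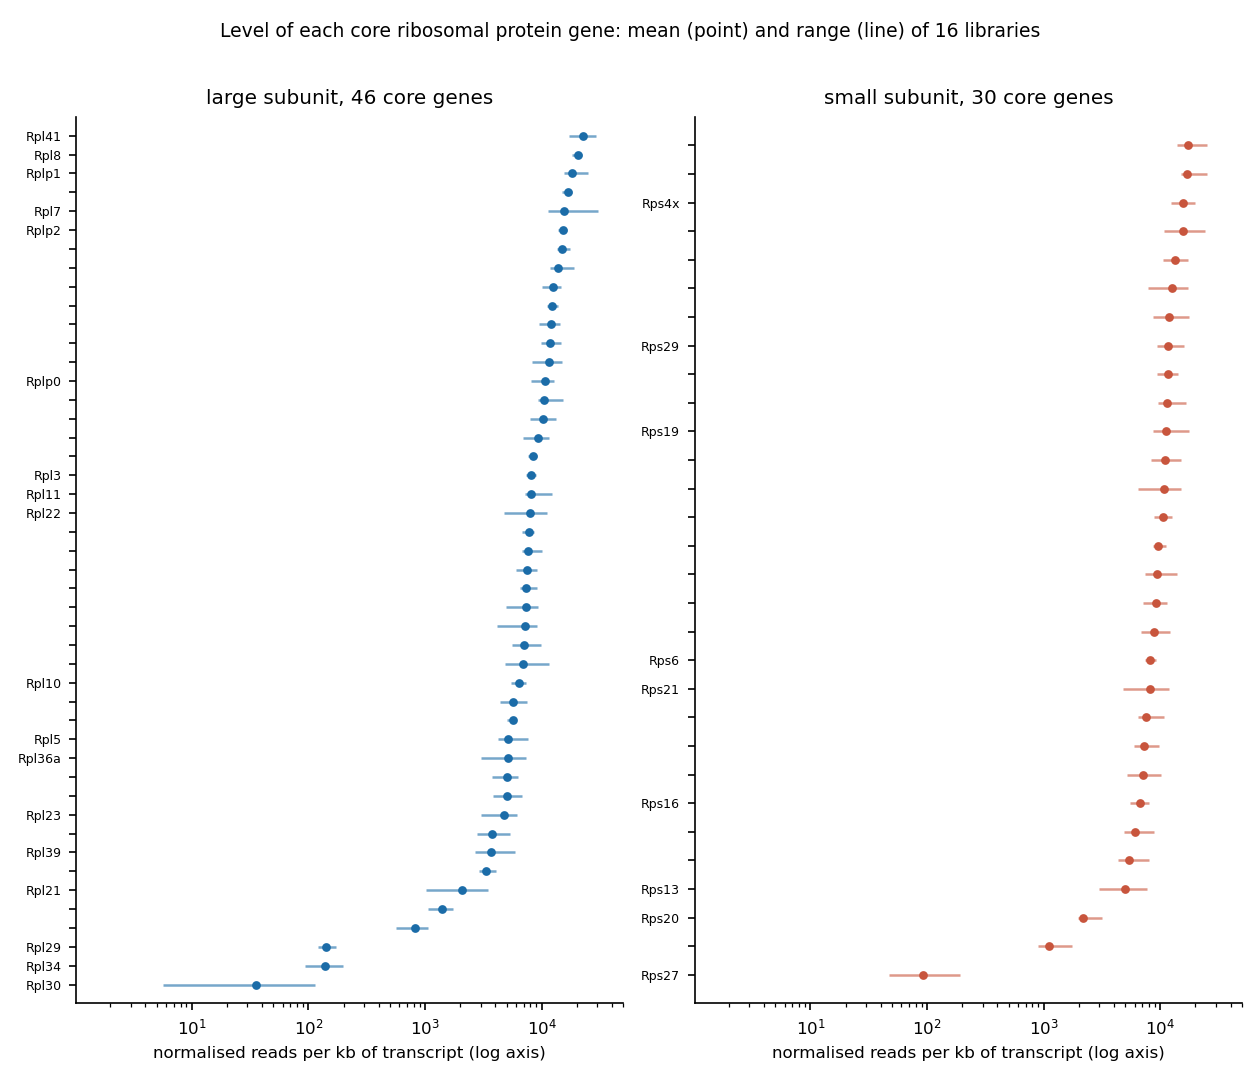
Level of each core gene in normalised reads per kb of its principal transcript (log axis), large subunit on the left and small subunit on the right, with points for the mean and lines for the range of 16 libraries, and names for the genes described in the text by rule. Most genes sit near the median of 8157, and Rpl30, Rps27, Rpl34 and Rpl29 lie far below it.

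Levels were steady for many members and not for others. In 20 of 76 core genes the highest library was at most 1.5 times the lowest, and in 18 it was more than 2 times. *Rpl8* was among the steady ones, from 15374 normalised reads in SP 1c to 18937 in 3p of set 2. *Rpl21* was among the others, from 916 in luciferase to 3134 in scr of set 1. The summed value of the core was 502566, 491596 and 508716 in scr of the 3 sets, 514595 in untreated cells and 506823 after luciferase esiRNA. Among KD libraries it ran from 507597 in SP 1c to 562863 in 3p of set 2, with SATS of set 3 above all others at 671150.0. In bulk RNA a different make-up of cells and a different amount of each mRNA per cell cannot be told apart, and these values are relative to all other RNA of a library.

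The balance of the subunits over all core genes stood at a different range in each set. It was taken as the mean log2(value + 1) of the 46 large subunit genes minus that of the 30 small subunit genes, as a score with no test. It was −0.45 to −0.37 in set 1, −0.50 to −0.46 in set 2 and −0.61 to −0.52 in set 3, with no overlap between sets. The score weighs each gene alike, so a gene with few reads can move it. *Rpl30* was 26.8, 8.39 and 4.76 normalised reads in scr of sets 1 to 3, from 4, 20 and 12 reads. The score was not taken without *Rpl30* alone, so its part in these ranges is not known. Over the 36 core genes with under 50% of windows shared, set 1 overlapped both other sets, at −0.38 to −0.26. Sets 2 and 3 did not overlap each other there, at −0.36 to −0.32 and −0.41 to −0.37. Within set 2 scr stood at −0.49, untreated cells at −0.50 and the KD libraries, all above scr, between −0.47 and −0.46. Within set 3 scr stood at −0.52, luciferase at −0.53, SP at −0.54, 3p at −0.535, 5p at −0.525 and SATS at −0.61, the lowest of all libraries. Over all core genes the 4 KD libraries thus lay at or below the scr value of −0.524 there, opposite to set 2, and this turn was not tested. Over the core genes with under 50% of windows shared, 3p and 5p of set 3 stood at −0.371, above scr at −0.385, and showed no such turn. In set 2 the score over all core genes includes *Rpl30*, with 20 reads in scr and 36 to 58 in the KD libraries. The part of *Rpl30* was not tested. The large subunit took 57.5% (SATS of set 3) to 60.5% (scr of set 1) of the summed core value. *Rn45s* and fibroblast markers also differed between sets, as given above, and their part in this was not tested.

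**Figure D2:**
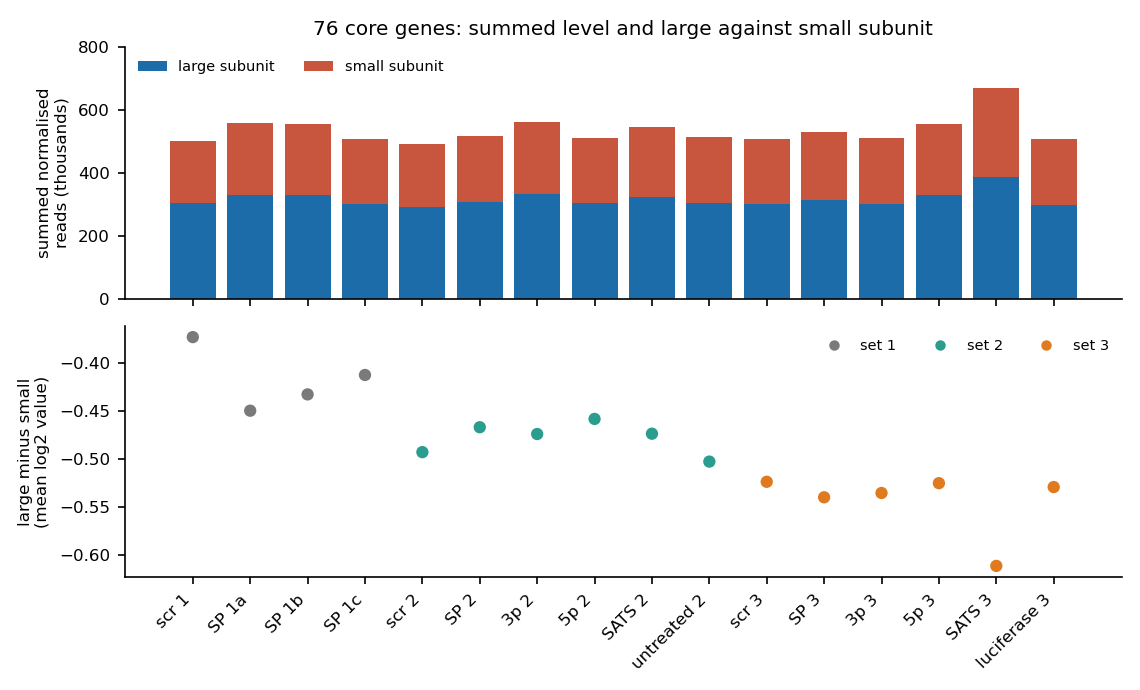
Upper panel, summed normalised reads (in units of 1000) of the 46 large and 30 small core genes in each of 16 libraries. Lower panel, mean log2 value of large minus small subunit genes, coloured by set. The sums lie between 491596 and 562863 reads except for 671150.0 in SATS of set 3, and the lower panel steps down from set 1 (−0.45 to −0.37) to set 3 (−0.61 to −0.52).

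The pool to *Stag1* (SP) was compared with scr to ask what loss of *Stag1* does to these mRNAs. Small positive differences prevailed, and no member passed the test. Relative to scr of the same set, the core median on the log2 scale was 0.18, 0.16 and 0.014 in SP 1a, 1b and 1c, 0.087 in set 2 and 0.076 in set 3, with 72, 70, 39, 58 and 59 of 76 core genes higher. By the same measure untreated cells of set 2 stood at 0.050, with 52 of 76 higher. Luciferase esiRNA of set 3 stood at −0.0061, with 31 of 76 higher. With limma over the 3 sets (15970 genes, Benjamini-Hochberg adjustment), 0 of 85 members were called, against 0% of all genes, and 0 had an unadjusted p under 0.05. The set term called 0 as well, with 5 members at an unadjusted p under 0.05, and edgeR and DESeq2 called 0. The median of the core was 0.083, and 38 of 76 core genes were higher than scr in all 3 sets against 16% of all genes. Of the 17 translation factors and other TOP mRNAs, 12 had a positive difference (median 0.048) and none was called.

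Among members whose mean was 50 or more, the largest positive differences in the fit were those of *Rps21* and *Rps16*, both of the small subunit. *Rps21* was 3636, 2854 and 1995 normalised reads in scr of sets 1 to 3, 4626, 4268 and 3962 in SP 1a, 1b and 1c, and 3456 and 2139.6 in SP of sets 2 and 3. It was higher than its own scr in each SP library, yet the sets differed more than that, and the groups overlapped. Its log2 difference was 0.20 ± 0.31 (SE, n = 3 sets, limma adjusted p = 1.0, and 0.76 with the set term, where the SE was 0.074). *Rps16* differed by 0.19 ± 0.14 (SE, limma adjusted p = 1.0). The largest negative differences were those of *Rpl39l* and *Rpl10l*, autosomal copies of X-linked genes that are known from the male germ line, −0.20 ± 0.37 and −0.17 ± 0.55 (SE, limma adjusted p = 1.0 for both). *Rpl10l* was 750.0 in scr of set 1 and 752, 579 and 145 in SP 1a, 1b and 1c. In the other sets SP stood close to scr, with 279 and 197 beside 268 and 193 in scr, and the fitted difference ran from −0.29 to 0.045 when libraries were left out. In sets 2 and 3 alone, with the panel fit below, 0 members were called (0.00606% of 16490 genes), and 0 with the set term (0.746%), while 1 and 2 members had an unadjusted p under 0.05, and edgeR and DESeq2 called 0. Of the core, 43 of 76 genes were higher in both sets, against 28.5% of all genes, and 2 were lower, against 29%. There *Rpl23*, whose protein binds *Mdm2*, and *Rpl22* had the largest positive differences, 0.23 ± 0.37 and 0.23 ± 0.27 (SE, limma adjusted p = 1.0, without the set term). With that term the limma adjusted p of *Rpl22* was 0.39. *Rpl7l1* had the lowest p, with −0.23 ± 0.072 (SE, limma adjusted p = 0.19 with the set term).

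**Figure D3:**
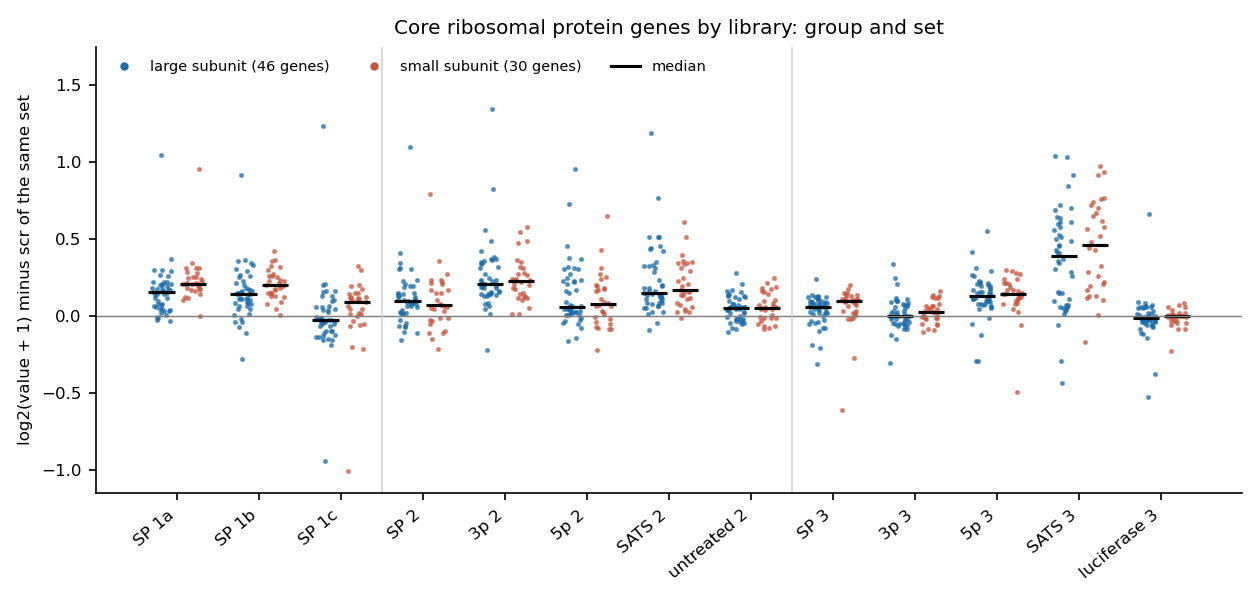
Difference of log2(value + 1) from scr of the same set for 46 large (blue) and 30 small subunit core genes (red) in each of 13 libraries, 1 point per gene, with black lines for the medians. The medians lie within 0.23 of 0 except in SATS of set 3, where they are 0.39 (large) and 0.46 (small) and the points are most widely spread.

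The 3p and 5p siRNAs were compared with scr and with each other to ask whether the end of the *Stag1* transcript that is targeted matters. All panel comparisons rest on the same 2 scr libraries. After 3p, the core stood higher in set 2, with a median of 0.21 and 75 of 76 genes higher, and not in set 3, with 0.011 and 42 of 76. After 5p, the medians were 0.067 in set 2 (59 of 76) and 0.14 in set 3 (69 of 76). The subunits had like medians, at 0.21 and 0.23 for 3p of set 2 and 0.13 and 0.14 for 5p of set 3. By limma over the 10 panel libraries (16490 genes), 0 of 85 members were called for 3p (0.00606% of all genes) or 5p (0.0121%), and 0 with the set term (0.285% and 2.37%, with 0.237% and 1.71% called lower), and edgeR and DESeq2 called 0. Without the set term, 0 and 1 members had an unadjusted p under 0.05. With the set term, 11 members for 3p and 15 for 5p had an unadjusted p under 0.05, all higher. Higher than scr in both sets were 42 of 76 core genes for 3p, against 25.9% of all genes, and 54 of 76 for 5p, against 32.7%. Lower in both sets were 1 and 2 core genes, against 29.7% and 30.1%.

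*Rpl36a*, *Rpl21* and *Rpl22* had the largest positive differences here. *Rpl36a*, which touches the tRNA in the exit site, was 2120.2 normalised reads in scr and 3124 in 3p of set 2, and 1466 and 1692 in set 3. *Rpl21* was 1340.5 in scr, 2372 in 3p and 2225 in 5p of set 2, and 991, 949 and 1137 in set 3. The difference of *Rpl21* in set 2 was thus not seen in set 3 after 3p. *Rpl22* was 3070.2 in scr and 3966 in 5p of set 2, and 2259 and 3019 in set 3, a difference of 0.39 ± 0.10 (SE with the set term, limma adjusted p = 0.065), the lowest p of the members for 5p. In the other direction, *Rpl29* differed by −0.26 ± 0.18 for 3p and −0.16 ± 0.18 for 5p, and the stalk base gene *Rplp0* by −0.076 ± 0.17 for 5p (SE, limma adjusted p = 1.0 for each). Over the core, the differences of 3p, 5p and SATS from scr in set 2 were larger for genes of low level, at Spearman rho of −0.59, −0.63 and −0.65 across 76 genes that share these libraries and their scr. *Lars2*, with 3.68% to 4.14% of the reads of set 1 and no more than 0.0237% elsewhere, was 2513, 1914 and 3559 normalised reads in these 3 libraries, against 357 in scr, 395 in untreated cells and 563 in SP of that set. Its part in the members' differences was not tested.

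Between 5p and 3p the direction changed with the set. The core median of 5p minus 3p was −0.12 in set 2, with 6 of 76 genes higher, and 0.11 in set 3, with 73 of 76 higher. The change of direction was not particular to the members. Over the 682 other genes with a transcript under 1000 bases, the median was −0.080 in set 2 (31.4% higher) and 0.16 in set 3 (76.2% higher). The part of transcript length was not tested. By limma 0 members were called (0% of all genes, and 3.26% with the set term, 1.3% higher), 0 had an unadjusted p under 0.05 (1 with the set term), and edgeR and DESeq2 called 0. In both sets 5 core genes were higher after 5p, against 30.1% of all genes, and 2 were lower, against 24.9%. The core median of the fit was 0.0029. Among members whose mean was 50 or more, the largest differences were those of *Rpl10l* at 0.39 ± 0.36, *Rpl36al* at 0.13 ± 0.27, *Rps29* at −0.12 ± 0.17 and *Rps20* at −0.11 ± 0.16 (SE, limma adjusted p = 1.0 for each, without the set term). With that term *Rpl10l* had the lowest limma adjusted p of the members, 0.12. Of the cell type markers, those of embryonic stem cells were higher after 5p than after 3p in 7 of 8 cases (median 0.17), of primitive endoderm in 5 of 5 (median 0.17), of two-cell-like cells in 5 of 5 (median 0.45) and of fibroblasts in 3 of 5 (median 0.11). None was called except *Col3a1*, higher with the set term, and the part of these markers in the members' differences was not tested. The marker counts pool both sets. Against scr, the stem cell marker median was 0.037 after 3p and −0.062 after 5p in set 2, and −0.28 and 0.14 in set 3. The two-cell-like median was −0.21 and −0.15 in set 2, and 0.13 and 1.06 in set 3. Primitive endoderm and fibroblast medians were higher after 5p in both sets.

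After SATS esiRNA the members stood above scr in both sets, and in set 3 by more than in any other library of that set. The core median was 0.16 in set 2, with 73 of 76 genes higher, less than the 0.21 of 3p in that set, and 0.42 in set 3, with 72 of 76 higher. Large and small subunit genes had medians of 0.15 and 0.17 in set 2 and 0.39 and 0.46 in set 3. In set 3, 31 of 76 core genes were higher by more than 0.5 on the log2 scale, against 6.73% of 11058 genes whose mean was 50 or more. In both sets, 69 of 76 core genes were higher than scr and 0 lower, against 32.4% of all genes higher and 33.8% lower in both. Short transcripts also stood higher in these libraries. Over the 682 other genes with a transcript under 1000 bases, the median was 0.10 in set 2 and 0.27 in set 3, while the median over all genes was 0.0053 and −0.00060. The part of transcript length in the members' differences was not tested.

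Whether these differences passed a test depended on the set term. Without it, 0 of 85 members were called by limma (0% of all genes), with 15 at an unadjusted p under 0.05, all higher, and edgeR and DESeq2 called 0. With it, 19 were called, all higher, against 2.64% of all genes called and 1.9% called higher. These were 12 of 46 large and 6 of 30 small subunit core genes and 1 of 9 related genes, with log2 differences of 0.43 to 0.77. edgeR with the set term called 23, the same 19 and *Rps7*, *Rps15a*, *Rpl22l1* and *Rpl36al*. Leaving out a library moved this count. Limma with the set term called 0 members without SATS of set 3 (core median 0.15), 0 without scr of set 2 (core median 0.29), 0 without scr of set 3 (core median 0.28) and 39 without SATS of set 2 (core median 0.47). Each of these fits leaves SATS or scr with 1 library, which is assumed to vary like the other groups.

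*Rpl36a* had the largest difference. It was 2120.2 normalised reads in scr and 3029 in SATS of set 2, and 1466 and 3002 in set 3, so both SATS values lay above both scr values, and its log2 difference was 0.77 ± 0.14 (SE with the set term, limma adjusted p = 0.021, and 1.0 without it). *Rpl39*, part of the wall of the exit tunnel, was 1751 and 2384 in set 2 and 1748 and 3605 in set 3, again without overlap, with 0.74 ± 0.15 (adjusted p = 0.023 by limma with the set term). *Rpl22*, which lies at the surface of the subunit and which mice can lack, was 3070.2 and 4387 in set 2 and 2259 and 4069 in set 3, with 0.68 ± 0.10 and the lowest p of the members (0.013, limma adjusted, with the set term). The promoter windows above show a run of 5 bases in *Rpl36a* and *Rpl22* and of 8 in *Rpl39*. The other 9 called large subunit genes were *Rpl21*, *Rpl23*, *Rpl37*, its transcribed retrocopy *Rpl37rt*, *Rpl31*, *Rpl5*, *Rpl17*, *Rpl15* and *Rpl38*. *Rpl37rt* counts as core by its symbol only. It is annotated as a transcribed processed pseudogene, and 90% of its windows also occur in other transcripts, so its call may not be separate from theirs. *Rpl5* carries 5S rRNA with *Rpl11* and, outside the ribosome, binds *Mdm2* with it, and *Rpl38* is known for its need in the translation of Hox mRNAs. *Rpl5* was 8555 and 10607 in set 2 and 10074 and 15665 in set 3 (0.47 ± 0.10, adjusted p = 0.029 by limma with the set term). Its partner *Rpl11* was 6255 and 6499 in set 2 and 6473 and 10137 in set 3, and was not called (0.35 ± 0.14, adjusted p = 0.18 by limma with the set term).

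Among the 6 called small subunit genes were *Rps27a*, *Rps21*, *Rps3a1*, *Rps29* and *Rps25*. *Rps27a* is made as a fusion with ubiquitin, and *Rps25* is needed for translation from some viral internal ribosome entry sites. *Rps21* was 2854 and 4069.9 in set 2 and 1995 and 3242 in set 3 (0.61 ± 0.13, adjusted p = 0.031 by limma with the set term), and both SATS values lay above both scr values. *Rps19*, the gene most often affected in Diamond-Blackfan anaemia, an inherited failure of red cell formation, was 6124 and 6234 in set 2 and 7826 and 11235 in set 3 and was not called (0.27 ± 0.11, adjusted p = 0.18 by limma with the set term). It stood higher in set 3 and hardly differed in set 2. *Rps6*, the S6 kinase target, differed little, with 6779 and 7453 in set 2 and 6543 and 7564 in set 3 (0.17 ± 0.082, adjusted p = 0.28 by limma with the set term). The stalk genes were uneven in set 3, where *Rplp1* was 8153 in scr and 12353 in SATS, *Rplp0* 16569.8 and 17219.5, and *Rplp2* 6391 and 6571, none of them called. *Rpl7* was 18892 in scr and 35659 in SATS of that set, but 16179.7 and 17481 in set 2 (0.51 ± 0.15, adjusted p = 0.078 by limma with the set term). Over the core, the differences of sets 2 and 3 correlated weakly, at a Spearman rho of 0.25 across 76 genes, each set with its own scr. The largest negative differences among members whose mean was 50 or more were those of *Rpl10l* at −0.18 ± 0.36 and *Rps19bp1* at −0.078 ± 0.15 (SE, limma adjusted p = 1.0 for both).

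**Figure D4:**
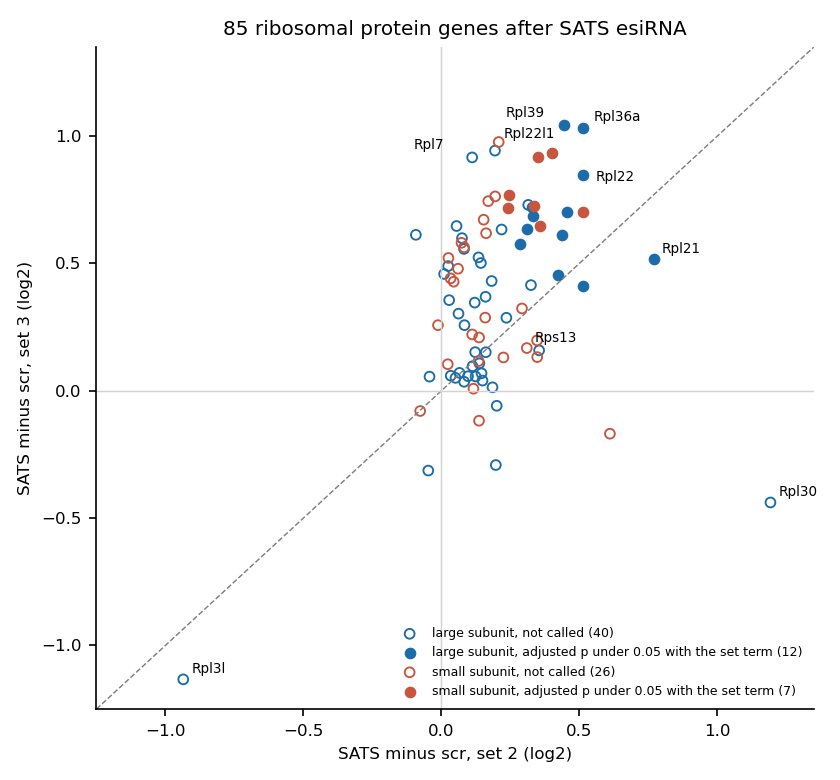
Difference of log2(value + 1) between SATS and scr in set 2 (x axis) and set 3 (y axis) for 85 members, blue for the large and red for the small subunit. Filled points mark the 12 large and 7 small subunit genes with an adjusted p under 0.05 by limma with the set term, the dashed line marks equal differences, and most points lie above it.

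Of 56 core genes with a promoter in the table, 31 had a C-led run of at least 6 bases and 25 did not. Their medians after SATS esiRNA were 0.16 and 0.21 in set 2 and 0.43 and 0.32 in set 3, and 5 of 31 and 8 of 25 were called with the set term. For CTTCCG, 10 of 38 genes with these letters and 3 of 18 without them were called. Other genes of the pathway showed smaller medians, though not smaller differences in every gene. Of 17 translation factors and other TOP mRNAs, 12 were positive (median 0.058), and 1, the initiation factor subunit *Eif3e*, was called with the set term. Their median was 0.085 in set 2 and 0.037 in set 3. In set 3, scr and SATS were 3640 and 6437 for *Eif3e*, 16634 and 26496 for *Tpt1*, 31675 and 43746 for *Npm1*, and 5332 and 7688 for *Naca*. These were picked after their values were seen. *Eef1d*, *Eef1g*, *Eef2*, *Eif3f*, *Pabpc1*, *Hnrnpa1* and *Nap1l1* were lower than scr there. None was called among 21 chaperones, import and maturation factors (median −0.017) or 18 regulators such as *Mtor*, *Larp1* and *Myc* (median −0.081). *Stag1* differed by −0.996 ± 0.097 after SATS esiRNA (SE, limma adjusted p = 0.0013 with the set term), against −2.36 after SP.

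The untreated and luciferase libraries differed from scr by less than the SATS libraries did, though each has no replicate and was not tested. In untreated cells the core median was 0.050, with 52 of 76 genes higher and an SD of 0.086 across genes, and in the luciferase library it was −0.0061, with 31 of 76 higher and an SD of 0.12. These compare with an SD of 0.32 in SATS of set 3. *Rpl24* stood out in the luciferase library, with 2787 normalised reads against 4017 in scr and 3913 to 4485 in the other libraries of set 3, and was picked after its values were seen. Fibroblast markers summed to 5635 in untreated cells and 2824 in scr of the same set.

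More members were called between sets 2 and 3 than between any siRNA and scr, but these tests had unlike power. The set comparison had 5 libraries on each side, and each siRNA comparison of the panel had 2. The counts therefore do not compare sizes of effect. With the siRNA as a term, limma over the 10 panel libraries called 54 of 85 members (63.5%), 24 higher and 30 lower in set 3, against 51.6% of all 16490 genes (24.2% higher and 27.4% lower). Whether these shares differ was not tested. By subunit, 12 large and 10 small core genes were higher and 17 large and 9 small were lower. In every siRNA group, 18 core genes were higher in set 3 and 21 were lower, against 24.6% and 27.6% of all genes. The core median of set 3 minus set 2 was −0.0053 for scr, −0.036 for SP, −0.17 for 3p, 0.075 for 5p and 0.16 for SATS. Members differed in both directions, with an SD of 0.26 across core genes between the scr libraries. Between these scr libraries the difference rose with level and with transcript length, at Spearman rho of 0.53 and 0.40 across 76 core genes.

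Lower in set 3 were *Rpl21*, *Rps13*, *Rps21*, *Rpl23* and *Rpl30*. In the order scr, SP, 3p, 5p and SATS, *Rpl21* was 1340.5, 1782, 2372, 2225 and 2286 in set 2 and 991, 940.2, 949, 1137 and 1418 in set 3, with no overlap except that set 3 SATS passed scr of set 2. Its log2 difference was −0.87 ± 0.091 (SE, n = 5 siRNA groups, limma adjusted p = 3.1e-06). *Rps13* was 2882, 3034, 3714, 3312 and 3572 in set 2 and 1776, 1866, 1838, 2096 and 1995 in set 3, without overlap (−0.78 ± 0.056, limma adjusted p = 7.0e-08). *Rpl30*, which had 8 to 58 reads in these libraries, had the largest difference, −1.80 ± 0.23 (limma adjusted p = 1.7e-05). In scr of set 1, *Rpl21* and *Rps13* stood higher than in scr of set 2, with 3134 and 3502 normalised reads. *Rpl30* had 26.8 there, but from only 4 reads, against 20 and 12 reads in scr of sets 2 and 3. Higher in set 3 were *Rpl22l1* by 0.66 ± 0.10 (SE, limma adjusted p = 5.5e-05), *Rps19* by 0.51 ± 0.068 and *Rpl7* by 0.49 ± 0.093 (limma adjusted p = 3.1e-05 and 0.00058). *Rps19* was 6124, 5894, 6636, 6042 and 6234 in set 2 and 7826, 8411, 8198, 8640.4 and 11235 in set 3, also without overlap. *Rpl8*, *Rplp1* and *Rpl41*, the genes of highest level, did not pass the test (−0.038 ± 0.053, −0.0067 ± 0.080 and −0.041 ± 0.083).

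**Figure D5:**
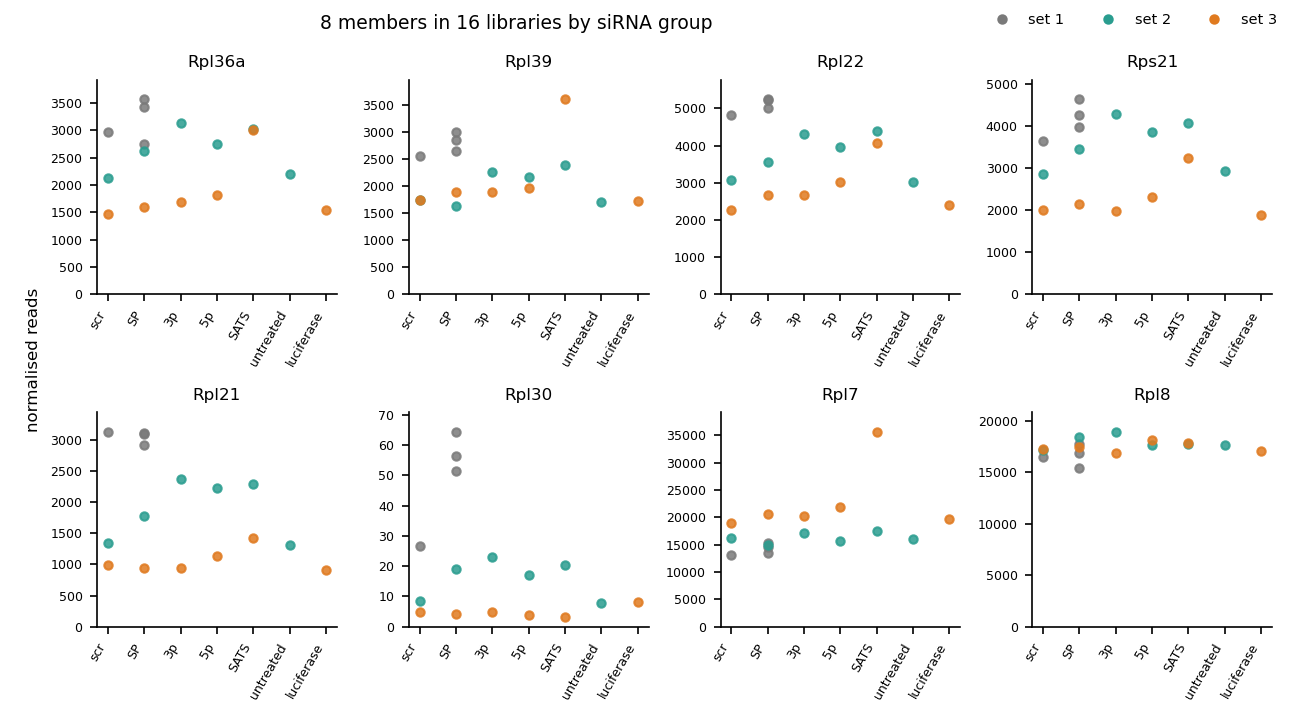
Normalised reads of 8 members in 16 libraries, by siRNA group on the x axis and coloured by set, 1 point per library. Rpl36a, Rpl22, Rps21 and Rpl21 fall from set 1 to set 3 in scr, as does Rpl30, which had only 4 reads in scr of set 1. SATS of set 3 is high in Rpl39 and Rpl7, and Rpl8 stays between 15374 and 18937 reads.

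Markers of other cells moved with the set as well. All 5 fibroblast markers (*Col1a1*, *Col1a2*, *Col3a1*, *Thy1* and *S100a4*) were called lower in set 3 (median −2.10), none of them at 0 in every library, and all 5 two-cell-like markers were called lower (median −1.82), with summed values of 201 to 289.8 in set 2 and 42.8 to 87.4 in set 3. Of 8 embryonic stem cell markers, 1 was called higher and 4 lower. Their part in the members' differences was not tested. Of the translation factors and other TOP mRNAs, 7 of 17 were called higher and 2 lower in set 3, of 21 chaperones and maturation factors 4 and 4, and of 18 regulators 4 and 3.

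The 9 related genes are known mostly from other tissues or as alternates of a core gene, and their levels per kb are given here as a percentage of the partner. *Rpl3l*, the muscle form of *Rpl3*, was at 0% to 0.113% (0 to 9 reads per library), and the germ line genes *Rpl10l* and *Rpl39l* were at 2.08% to 12% and 3.04% to 8.73%. *Rpl7l1* was at 3.88% to 9.75% of *Rpl7*, and *Rps19bp1*, which encodes a partner protein and a regulator of Sirt1, at 2.17% to 4.89% of *Rps19*. Higher shares were those of *Rpl22l1*, whose splicing *Rpl22* protein is known to restrain, of *Rpl36al* and of *Rps4l*, a transcribed processed pseudogene. *Rpl36al* was at 35.7% to 48.1% of *Rpl36a* and *Rps4l* at 17.7% to 39.1% of *Rps4x*. *Rpl22l1* ran from 9.8% of *Rpl22* in SP 1b to 40.02% in SATS of set 3. It took 20.4% in scr and 16.3% in SATS of set 2, and 37.5% and 40.02% in set 3, so its share differed more between sets than with the siRNA. *Rpl22l1* itself was 729 and 834 normalised reads in scr and SATS of set 2 and 986 and 1896 in set 3 (0.57 ± 0.15, SE, limma adjusted p = 0.061 with the set term). *Rps27l*, a p53 target, exceeded its partner *Rps27* many times over per kb, though 98.5% of the windows of *Rps27* are shared with other transcripts. *Rps27l* was 1931 and 2282 in set 2 and 2355 and 3871 in set 3 (0.48 ± 0.11, limma adjusted p = 0.039 with the set term). It was the only related gene called after SATS esiRNA by limma with the set term.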

How the data were processed

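RNA of serum-grown E14 cells was depleted of rRNA with NEBNext reagents, and directional libraries were sequenced as 75-base reads. According to the methods, the authors aligned reads to mm10 with hisat2 and counted them per gene with featureCounts. The deposited values of the table of all sets are a normalised signal, reads divided by a DESeq2 (1.14.1) size factor per library. The deposited table of set 1 holds CPM of the effective library size (edgeR 3.16.5), used as a check. Dividing by the value of 1 read gave whole reads for 100% of values within 0.1. Columns that were not used numbered 0. Libraries of 2i cells were not analysed here.

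Log2(value + 1) was fitted with limma 3.58.1 (trend) in R 4.3.3 on genes summing to 10 or more, which all 85 members passed, with calls at p under 0.05 after Benjamini-Hochberg adjustment over all genes. SP libraries 1a, 1b and 1c were averaged. edgeR 4.0.16 and DESeq2 1.42.0 were run on the recovered reads. The set number comes from the labels. Deviations of same-numbered libraries from their group means correlated at 0.77 to 0.82 in the SP comparison and 0.81 to 0.93 in the panel, so a fit with the set as a replicate block is given where it changes a call. For siRNA comparisons, an SE or p printed without naming the set term is of the fit without it. That SE includes the spread between sets. The fits were also run on simulated reads. Set effects there were drawn smaller than in the data, where scr of sets 2 and 3 differed with an SD of 0.42 across genes. That run therefore cannot show how far calls that depend on the set term hold here. Annotation was GENCODE M21 (GRCm38). Intervals of reads cover counting error only, since PCR reads are not independent molecules.

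Members and lists were chosen with earlier results of these data known. Named were the 2 members with the largest positive and negative difference per comparison (mean of 50 or more), the 3 highest and 3 lowest core genes per kb, related genes with their partners, and *Rplp0*, *Rplp1*, *Rplp2*, *Rps6*, *Rps19*, *Rpl5* and *Rpl11*. *Rpl24* and other genes outside this rule were chosen after their values were seen. Some genes are not reported here.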

Additional observations from a re-analysis of the deposited data

Results flagged for a closer look

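*Rpl23*, *Rpl7* and *Rps19* each had 1 SP library far from the other 4. *Rpl23* was 3444 normalised reads in SP of set 3 against 5831 to 6506 in the other SP libraries, *Rpl7* was 20650.1 against 13457 to 15231, and *Rps19* was 8411 against 5894 to 6429. In each of them scr of set 3 stood on the same side of scr of sets 1 and 2, with 3162 against 5993 and 4626 for *Rpl23*, 18892 against 13125 and 16179.7 for *Rpl7*, and 7826 against 5485 and 6124 for *Rps19*. Among independent libraries chance alone gives such a gap in about 1 in 20 groups, and 40 series were examined. Here SP 1a, 1b and 1c shared set 1, and the library set apart was the only SP library of set 3. That rate therefore does not hold for these series.

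The difference of 5p from 3p had opposite directions in the sets. The core median was −0.12 in set 2 and 0.11 in set 3, that of the large subunit −0.12 and 0.11, and that of the small subunit −0.14 and 0.14. The 682 other genes with a transcript under 1000 bases changed direction too, with medians of −0.080 and 0.16. With 1 library of each siRNA per set, the difference between sets was not tested.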

How the results depend on the processing

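Alternatives were other pseudocounts (0.1 and 10), other filters on low values, TMM scaling, scaling by reads without *Rn45s*, edgeR, DESeq2, the set as a replicate block, added controls and leaving out libraries. Counts of members called stayed within 1.5 times of the given ones under these except as follows. For SATS against scr, 0 members were called, but 19 with the replicate block, 23 with the block in edgeR, 24 with the block and TMM scaling and 19 with the block and scaling without *Rn45s*. For 5p against scr the block with scaling without *Rn45s* called 1 member, *Rpl22*, where 0 were called otherwise. The block changed the call of no member in the other knockdown comparisons. Leaving out libraries gave 0 to 39 members for SATS (39 without SATS of set 2), 0 to 1 for 5p (1 without SATS of set 3, with the block) and for 5p against 3p (1 without 5p of set 2, with the block), 0 for SP and 3p, and 49 for set 3 against set 2. Core medians then ran from 0.14 to 0.47 for SATS (0.42 in set 3 alone), −0.020 to 0.25 for 3p, 0.049 to 0.15 for 5p, −0.13 to 0.14 for 5p against 3p (−0.12 in set 2 and 0.11 in set 3 alone), 0.070 to 0.099 for SP over 3 sets and 0.048 to 0.091 for SP in sets 2 and 3. Large minus small medians ran from −0.17 to 0.014 for SATS (with the block −0.044 without SATS of set 2 and −0.053 without scr of set 3), −0.067 to 0.032 for 5p (−0.048 with the block without 5p of set 3, −0.015 in set 3 alone), −0.067 to 0.028 for 5p against 3p (0.022 in set 2 alone), −0.039 to 0.035 for 3p (0.016 without scr of set 2), −0.055 to −0.0088 for SP over 3 sets and −0.055 to 0.033 for SP in sets 2 and 3 (0.026 in set 2 alone). For set 3 against set 2 that difference was −0.13 without the scr libraries of both sets, −0.036 without those of SATS or without SATS of set 3 and −0.057 over core genes with under 50% of windows shared. The mean score of large minus small subunit was −0.76 over all members and −0.36 over the genes with low sharing. Set 3 against set 2 called 42 to 57 members under all alternatives. The cause of these shifts was not tested. Chosen after seeing the data were the block with other scalings, most libraries left out singly and the genes with low sharing. The filter on windows unique in the genome was not run, since no genome was used here. Leaving a whole set out of the panel leaves 1 library per group, and those values carry no test. At the median core gene, counting error was 0.043 in set 1 and 0.012 in sets 2 and 3 (log2). Over the genes with low sharing, large minus small scores of set 1 overlapped those of sets 2 and 3, which did not overlap each other.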
